A study of Mus musculus with 4 samples.

Results

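The 10 genes described here encode adaptors and exchange factors that link activated receptors to Ras: the Shc adaptors Shc1, Shc2, Shc3 and Shc4, the adaptor Grb2, and the Ras exchange factors Sos1, Sos2, Rasgrf1, Rasgrp1 and Rasgrp2. They were chosen by name among the 750 endogenous probes of a NanoString cancer pathway panel, on which all 10 were present with 1 probe each. The panel was run on CD45- live cells sorted from subcutaneous B16.OVA tumors, a mouse melanoma line that expresses ovalbumin. Samples 1 and 2 of the KO group came from Prdm1fl/flFoxP3YFP-Cre mice, in which Cre under the Foxp3 promoter deletes Prdm1 (encoding Blimp1) in Foxp3+ regulatory T (Treg) cells, and samples 1 and 2 of the WT group came from FoxP3YFP-Cre mice, which carry the same Cre and an intact Prdm1. All mice were of strain C57BL/6, generally 5 to 10 weeks old, received NP-OVA in complete adjuvant at day 0 (the day of tumor inoculation) and in incomplete adjuvant at day 7, and bore tumors of at most 1.5 cm3 at sorting. The deletion lies in Treg cells, which carry CD45 and which the sort leaves out, so the tumor cells of both groups are the same line.

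When a growth factor receptor is phosphorylated on tyrosine, Shc proteins dock on it, are phosphorylated in turn and recruit Grb2. Grb2 carries a Sos protein to the membrane, where Sos exchanges GDP for GTP on Ras and so starts the Raf, Mek and Erk kinase cascade. The RasGRF and RasGRP exchange factors reach Ras family proteins by other routes, through calcium and diacylglycerol. Shc1 is made in most tissues, while Shc2 and Shc3 are best known from neurons. Shc4, also called RaLP, has been described in human melanoma and in the nervous system.

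The 4 samples held between 626056 and 692284 endogenous counts in total. The background limit, the mean plus 2 SD of the 8 negative control probes of a sample, was 21.9 and 19.9 counts in KO 1 and KO 2 and 17.5 and 17.9 counts in WT 1 and WT 2. Over the 446 genes above that limit in at least 2 of 4 samples, KO 1 correlated at 0.993 with WT 1 but at 0.981 with KO 2, and KO 2 stood apart on the first principal component. The Prdm1 probe was below the limit in every sample, at 9 and 6 counts in the KO samples and 9 and 9 in the WT samples, and so checks neither the deletion nor the labels. No label says that each sample came from a separate mouse, so p-values measure only the spread between these samples. Because the sort was in bulk, fewer cells of a type and less RNA per cell cannot be told apart.

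The Shc family held paralogs far above background (Shc1 and Shc4) and a paralog below it in each sample (Shc2), and the promoters of these 3 are shown because their levels lie at both ends of the family. Each line gives the 250 bases before and 50 bases after an annotated start in GRCm38.p6, with every CG dinucleotide in capitals: Shc4 at chr2:125724099-125724398 (- strand), the more upstream of the Shc1 starts at chr3:89418301-89418600 (+ strand), and Shc2 at chr10:79637869-79638168 (- strand).
Shc4 promoter: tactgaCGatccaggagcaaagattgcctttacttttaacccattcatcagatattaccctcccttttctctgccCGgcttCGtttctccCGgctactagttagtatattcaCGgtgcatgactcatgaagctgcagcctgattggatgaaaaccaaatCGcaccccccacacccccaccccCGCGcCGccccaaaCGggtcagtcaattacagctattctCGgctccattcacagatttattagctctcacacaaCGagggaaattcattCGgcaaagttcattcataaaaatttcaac
Shc1 promoter: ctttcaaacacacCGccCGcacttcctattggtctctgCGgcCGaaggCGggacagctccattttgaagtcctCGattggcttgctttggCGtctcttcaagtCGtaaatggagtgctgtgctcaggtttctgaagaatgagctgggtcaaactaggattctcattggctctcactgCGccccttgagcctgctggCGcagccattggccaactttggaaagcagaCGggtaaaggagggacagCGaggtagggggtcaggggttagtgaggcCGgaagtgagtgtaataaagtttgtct
Shc2 promoter: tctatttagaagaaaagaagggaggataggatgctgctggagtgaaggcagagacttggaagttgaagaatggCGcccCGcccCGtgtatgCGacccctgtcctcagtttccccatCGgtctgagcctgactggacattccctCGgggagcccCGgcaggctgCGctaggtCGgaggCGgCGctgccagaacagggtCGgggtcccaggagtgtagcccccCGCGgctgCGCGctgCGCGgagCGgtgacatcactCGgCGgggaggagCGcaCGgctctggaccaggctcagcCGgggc

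The promoters of Shc4 and Shc1 held 13 CG dinucleotides each and that of Shc2 held 24. Over 32851 promoters of the same length the median was 7, with 37.9% holding at least 13. Thus the paralog with counts at background had the promoter richest in CG of these 3. The other Shc1 start had 4, and of the other members with an entry Sos2 had 54, Sos1 28, Rasgrf1 and Rasgrp1 26 each, Rasgrp2 40 and 23 at its starts, and Grb2 3 and 7. Of the 10 genes, 9 had an entry in the table. Shc3 had none.

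Of the 10 members, 7 lay above the background limit in at least 2 of 4 samples (70.0%, against 59.5% of all 750 endogenous probes), 6 of them in all 4 samples, and 3 in none. Shc1, Shc4, Grb2, Sos2, Sos1 and Rasgrp2 were above the limit in every sample. Shc3 was above it in both KO samples and WT 1 but not in WT 2. Shc2, Rasgrf1 and Rasgrp1 stayed below the limit throughout, between 2 and 12 counts, where the negative controls averaged 7.25 to 9.12 counts. For these 3 genes no level and no fold change is given, since expression was not detectable with this assay.

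**Figure D1:**
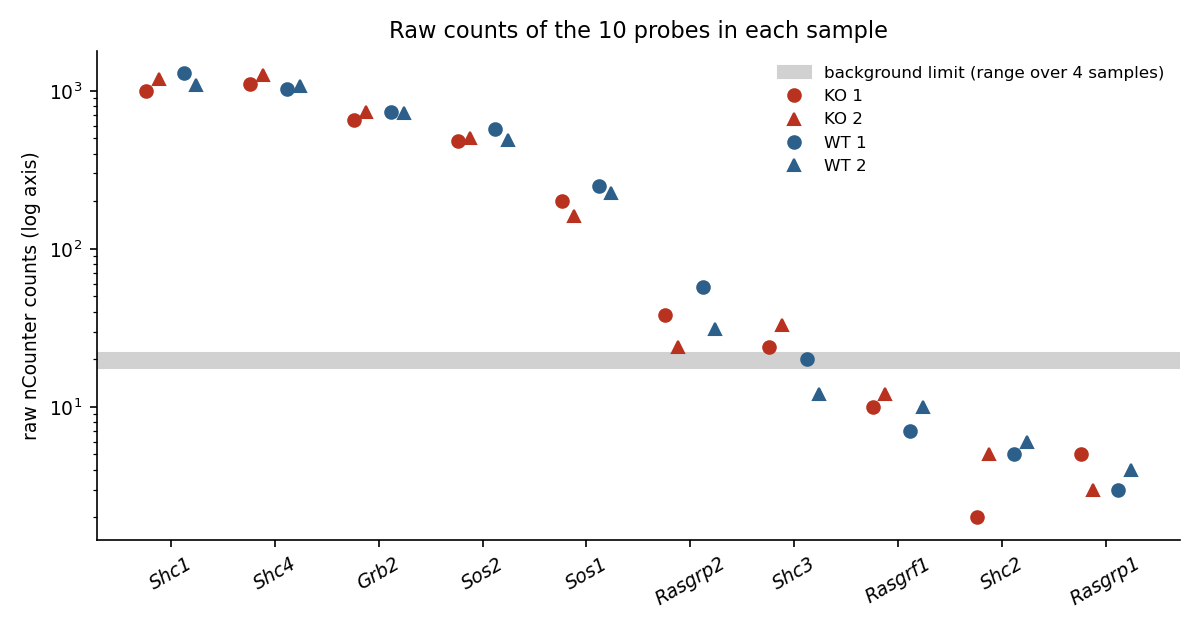
Raw nCounter counts (log axis) of each member in KO 1, KO 2, WT 1 and WT 2, with genes ordered by their mean scaled count and the grey band marking the background limits of the 4 samples (17.5 to 21.9 counts). Shc1, Shc4, Grb2, Sos2 and Sos1 lie far above the band and Rasgrp2 lies above it at low counts in all 4 samples. Shc3 spans the band, and Rasgrf1, Shc2 and Rasgrp1 lie below it.

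By mean housekeeping-scaled count, in which each sample's counts were divided by 1 factor that the 20 housekeeping probes set, the order was Shc1 (1141), Shc4 (1116), Grb2 (715), Sos2 (512), Sos1 (210), Rasgrp2 (37.4) and Shc3 (22.1), followed by the 3 genes below the limit. Counts of different probes also depend on how well each probe captures its transcript, so the order is one of counts and not of molecules. Shc1 and Shc4 could not be ordered, since their ranges overlapped and each was higher in 2 of 4 samples. The ranges of Shc4 and Grb2, of Grb2 and Sos2, of Sos2 and Sos1, and of Sos1 and Rasgrp2 did not overlap. Those of Rasgrp2 and Shc3 did. Among the 446 tested genes, which had a median of 352 scaled counts, Shc1 ranked 77, Shc4 79, Grb2 124, Sos2 171, Sos1 287, Rasgrp2 397 and Shc3 432.

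To ask whether the loss of Blimp1 in Treg cells went with a different level of these genes in CD45- tumor cells, KO samples were compared with WT samples gene by gene. None of the 7 tested members differed past an adjusted p of 0.05 (edgeR's quasi-likelihood test), nor did any of the 446 tested genes (0%), of which 33 (7.4%) were at an unadjusted p under 0.05. DESeq2 called 3 of all genes, no member among them, and limma-voom called 0. Of the 7, Shc3 alone was at an unadjusted p under 0.05, with higher values in KO, as were 2.91% of all tested genes. In 2 members, Shc3 and Shc4, each KO sample exceeded each WT sample, as in 11.2% of all tested genes. In another 2, Shc1 and Sos1, each KO sample was under each WT sample, as in 31.4% of all. The median log2 fold change of the 7 was -0.08, the same as that of all tested genes, with 2 higher and 5 lower in KO samples against 148 and 298 over all genes. With positive control scaling, the median over all genes moved by 0.13 to 0.05, and 5 of the 7 were higher and 2 lower.

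**Figure D2:**
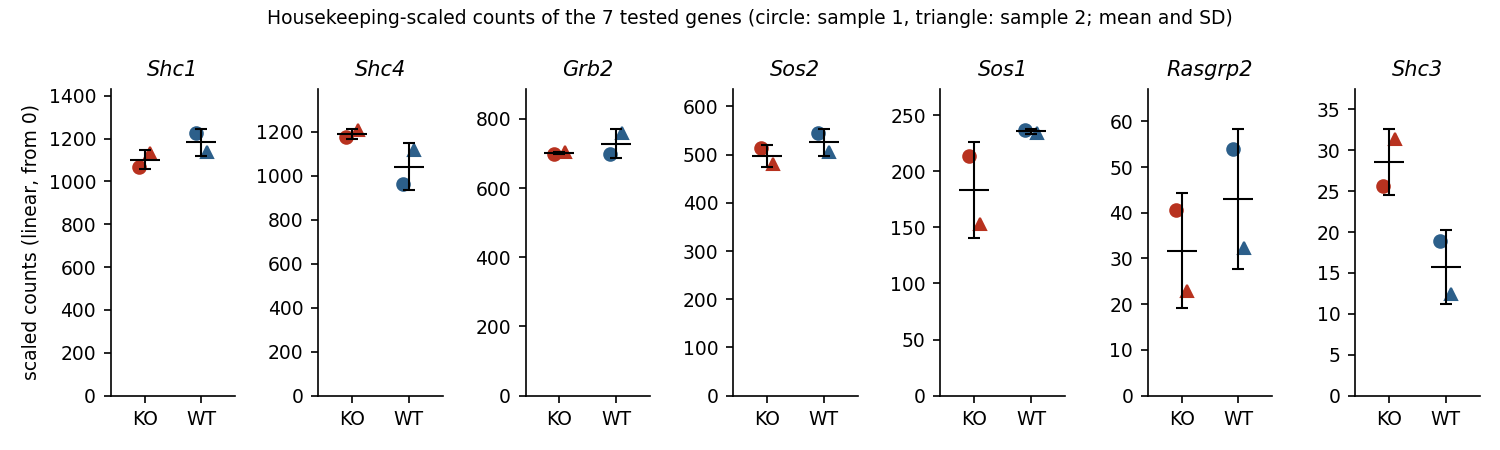
Housekeeping-scaled counts of the 7 tested members, 1 panel per gene on a linear axis from 0, KO on the left and WT on the right, with points for samples (circle for sample 1, triangle for sample 2), a horizontal line for the mean and bars for the SD (n = 2 per group). The groups are apart for Shc3, Shc4, Sos1 and, narrowly, Shc1, and overlap for Grb2, Sos2 and Rasgrp2.

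Of the 3 Shc adaptors tested, Shc3 had the largest log2 fold change, at low counts and with WT 2 below the background limit. The Shc3 probe gave 24 and 33 raw counts in the KO samples, against 20 and 12 in the WT samples, or 25.7 and 31.4 scaled counts in KO against 18.9 and 12.5 in WT. Both KO samples were above both WT samples, but all 4 values lie near the limit. The exact Poisson 95% intervals, which cover counting error only, were 15.4 to 35.7 and 22.7 to 46.3 counts in KO 1 and KO 2, against 12.2 to 30.9 and 6.20 to 21.0 in WT 1 and WT 2, so that those of KO 1 and WT 1 largely overlap. Its log2 fold change of 0.85 had a standard error of 0.34 and 95% bounds of 0.03 and 1.68 (edgeR, adjusted p = 0.569, unadjusted p = 0.0441). It was 1.50 after subtraction of the negative control mean, 0.60 without WT 2, 0.70 without KO 2 and 0.59 in the deposited signal, where WT 2 sits at the floor of 17.

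Shc4 was at 1175 and 1207 scaled counts in KO samples, against 965 and 1118 in WT samples. The groups did not overlap under any of the 5 scalings, but WT 2 was close to the KO samples. The log2 fold change was 0.19 with a 95% interval from -0.09 to 0.48 (edgeR, adjusted p = 0.651), and 0.09 without WT 1. Shc1, the adaptor gene of this family made in most tissues, was at 1069 and 1132 in KO, against 1226 and 1137 in WT samples. KO 2 and WT 2 were nearly equal, and the log2 fold change was -0.10 with an interval from -0.37 to 0.16 (edgeR, adjusted p = 0.754). Its groups overlapped under the 4 other scalings, and with positive control scaling the sign turned to 0.02. Relative to the median of all genes in the same fit, Shc1 was at -0.02 or -0.03 and Shc4 at 0.27 or 0.28 under each of the 5 scalings.

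A ratio of 2 probes within 1 sample is free of the scaling. The ratio of Shc4 to Shc1 was 1.10 and 1.07 in KO 1 and KO 2, against 0.787 and 0.984 in WT 1 and WT 2. Shc4 thus had more counts than Shc1 in both KO samples and fewer in both WT samples, a difference of 0.30 on the log2 scale. The exact Poisson 95% intervals of the Shc1 and Shc4 counts overlapped in KO 1, KO 2 and WT 2. A ratio of 1 has no set meaning between probes that may differ in capture. Ratios without overlap between the groups were seen in 38.1% of all pairs of tested genes. The log2 ratios had an SD of 0.03 in KO and 0.23 in WT samples (n = 2 per group). An exact two-sided permutation test gave p = 0.333, the smallest that 2 against 2 samples allow. As shares of all Shc counts, Shc4 made up 51.7% and 50.8% in KO samples, against 43.6% and 49.2% in WT samples, and Shc3 1.13% and 1.32% in KO, against 0.853% and 0.549% in WT samples.

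Grb2, the adaptor that binds phosphorylated Shc and carries Sos, had the narrowest range, relative to its mean, of the 7 tested members. Grb2 was at 699 and 704 scaled counts in KO samples, against 699 and 758 in WT samples. The log2 fold change was -0.05 with an interval from -0.31 to 0.20 (edgeR, adjusted p = 0.878), and its sign turned with TMM (0.03), DESeq2 size factors (0.02) and positive controls (0.08). Under the last of these the KO samples lay above the WT samples.

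Of the exchange factors, Sos2 had the most counts and the closest values. Sos2 was at 514 and 482 scaled counts in KO samples, against 545 and 506 in WT samples, with a log2 fold change of -0.08 and an interval from -0.34 to 0.18 (edgeR, adjusted p = 0.816). Relative to the median of all genes it was at 0.00 under each scaling. Sos1 was at 214 and 153 scaled counts in KO samples, against 237 and 234 in WT samples. Both KO samples were lower, and the WT samples lay close together while the KO samples did not. Its log2 fold change of -0.36 had a standard error of 0.19 and 95% bounds of -0.83 and 0.10 (edgeR, adjusted p = 0.582, unadjusted p = 0.104). KO 2 set much of its size: the log2 fold change was -0.14 without KO 2 and -0.62 without KO 1 (edgeR, adjusted p = 0.106), where the lone KO sample is taken to vary like the WT samples. Over all alternatives its adjusted p ran between 0.106 and 0.979. With positive control scaling the KO and WT samples overlapped at a log2 fold change of -0.23.

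**Figure D3:**
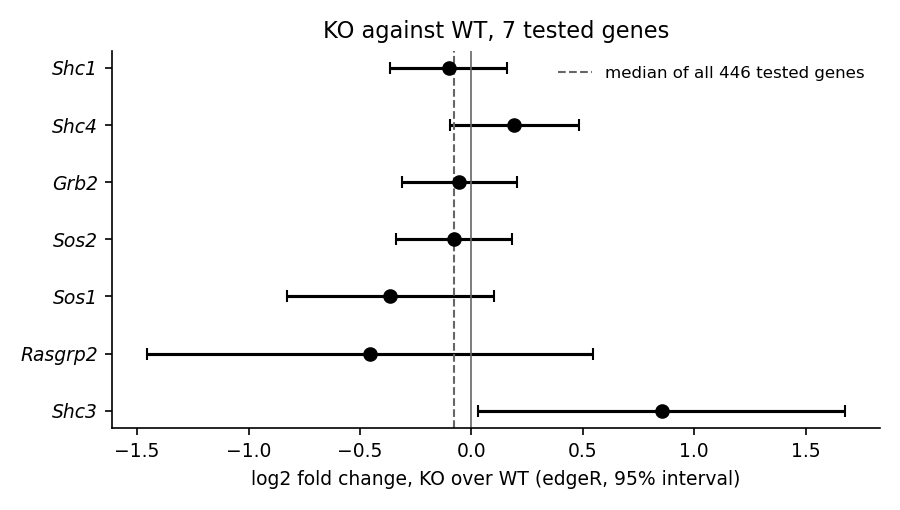
Log2 fold change of KO over WT with its 95% interval from edgeR for the 7 tested members (2 samples per group), with a solid line at 0 and a dashed line at the median of all 446 tested genes (-0.08). Only the interval of Shc3, from 0.03 to 1.68, leaves out 0, and its adjusted p is 0.569.

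The ratio of Sos1 to Sos2 was 0.416 and 0.318 in KO samples, against 0.435 and 0.463 in WT samples, or -0.30 as a log2 difference. KO 1 lay close to WT 1 while KO 2 had the lowest ratio. The ratio of Sos1 to Grb2 was 0.306 and 0.218 in KO, against 0.339 and 0.309 in WT samples, so that KO 1 and WT 2 were nearly equal. That of Sos2 to Grb2 overlapped between the groups, at 0.735 and 0.684 in KO, against 0.780 and 0.667 in WT samples. Of 6 such ratios computed, after the members' counts had been seen, 4 did not overlap between the groups, each at the smallest exact permutation p of 0.333, against 38.1% of all 99235 pairs of tested genes. The 6 ratios share 5 genes and are not independent. The other ratios without overlap were those of Sos1 to Grb2 and of Shc4 to Grb2, the last at 1.68 and 1.71 in KO, against 1.38 and 1.47 in WT samples.

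**Figure D4:**
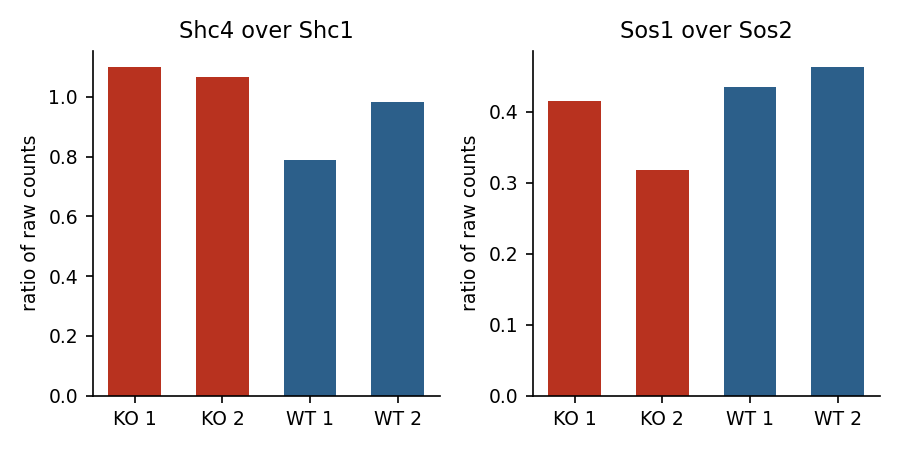
Ratio of raw counts within each sample (linear axis from 0), Shc4 over Shc1 on the left and Sos1 over Sos2 on the right, with bars for KO 1, KO 2, WT 1 and WT 2 and no error bars since each bar is 1 sample. The Shc4 to Shc1 ratio is above 1 in both KO samples (1.10 and 1.07), and the Sos1 to Sos2 ratio is lowest in KO 2 (0.318).

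Rasgrp2, an exchange factor best known from platelets, where it acts on Rap1, was detected at low counts. Rasgrp2 was at 40.6 and 22.8 scaled counts in KO samples, against 53.8 and 32.2 in WT samples, so that the groups overlapped. The log2 fold change was -0.45 with a wide interval from -1.45 to 0.55 (edgeR, adjusted p = 0.726), and it was -0.09 without KO 2, -0.03 without WT 1, -0.92 without KO 1 and -0.77 without WT 2. Rasgrp1, which drives Ras activation in T cells, gave 5 and 3 raw counts in KO samples, against 3 and 4 in WT samples. Rasgrf1, an exchange factor of neurons, gave 10 and 12 in KO, against 7 and 10 in WT samples, and Shc2 gave 2 and 5 in KO, against 5 and 6 in WT samples. All of these were below the limits.

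Blood and neural cells are where several of these genes are best known, and the CD45- gate removes leukocytes but not platelets or nerve. Of 19 leukocyte markers on the panel, 5 lay above background in at least 2 samples (Il3ra, Jak3, Pik3cd, Plcg2 and Tlr4) and 14 did not, among them Cd14 and Csf1r. Their summed level was 932 and 861 scaled counts in KO samples, against 1145 and 1214 in WT samples. Tlr4 made up most of it, at 607 and 550 in KO, against 776 and 809 in WT. The other 18, of which only 4 were above the limit, summed to 325 and 311 in KO, against 368 and 405 in WT samples. No direction is read from that sum, since the background limit summed over all 19 markers was 368. Tlr4 was lower in both KO samples, as were Jak3, Pik3cd and Plcg2 at low counts, while Il3ra overlapped between the groups. Sos1 and Shc1 were also lower in both KO samples, as were 31.4% of all tested genes. The part of these markers in the Sos1 and Shc1 differences was not tested. Of 2 platelet markers on the panel, 1 (Itgb3) was above the limit, at 148 and 199 in KO, against 139 and 107 in WT samples (log2 fold change 0.49, edgeR, adjusted p = 0.569). Both KO samples were higher, while Rasgrp2 had the lower mean in KO. Of 8 neural and Schwann cell markers, Mapt alone was above the limit and 7, among them Ngfr and Ntrk2, were below it. Mapt was at 105 and 85.7 scaled counts in KO, against 152 and 145 in WT samples. The other 7 were all below the limit, so no level and no direction is given for them. Mapt was lower in both KO samples, while Shc3 was higher in both. The part of neural cells in the Shc3 values was not tested. The melanocyte lineage genes Pax3 and Met were far above the limit, Kit just above it and Lef1 below it. The 6 fibroblast and pericyte markers summed to 279 and 147 in KO samples, against 252 and 445 in WT samples. The 4 endothelial markers summed to 470 and 294 in KO, against 415 and 447 in WT. KO 2 was lowest on both sums, as it was for Sos1, but KO 1 was above WT 1 on both, unlike for Sos1. In KO 2, Col1a1, Col1a2 and Col3a1 were at 12.4, 16.2 and 16.2 scaled counts, below the KO 2 limit of 18.9 on that scale. The endothelial sum was mostly Angpt2, at 409 and 248 in KO, against 360 and 403 in WT samples. Of the other 3, Kdr and Flt1 were below the limit in every sample. The other 3 summed to 60.9 and 45.7 in KO, against 54.8 and 44.7 in WT, where KO 2 was not the lowest. The part of these cell types in the Sos1 values was not tested.

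The members sit between receptors and the Ras and Erk genes, so the other genes of the pathway were read in the same fit, and none of them passed the adjusted threshold. Of 21 receptor tyrosine kinase genes on the panel 7 were tested. Of these, 3 had higher and 4 had lower means in KO samples, and the median log2 fold change was -0.07. Erbb2 had the lowest p of them, at 219 and 178 scaled counts in KO samples, against 253 and 236 in WT samples (log2 fold change -0.30), followed by Met (0.34) and Pdgfrb (-0.32). Of the 3 tested adaptors and partners of the Shc and Grb2 complex, the phosphatase gene Ptpn11, whose product Shp2 acts with Grb2 upstream of Ras, was at 1086 and 1037 in KO samples, against 1212 and 1244 in WT samples (log2 fold change -0.21, edgeR, adjusted p = 0.569). Irs1 (-0.07) and Cbl (0.01) differed less.

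Of the 4 tested Ras genes 1 was higher and 3 lower, with a median of -0.08. Rras2, which encodes a Ras-related GTPase also called TC21, was at 250 and 221 scaled counts in KO samples, against 307 and 303 in WT samples. Its log2 fold change was -0.37 (edgeR, adjusted p = 0.569, unadjusted p = 0.0266). Nras was at 851 and 927 in KO, against 838 and 817 in WT samples (0.10). Among Ras GTPase activators, Nf1 was at 406 and 390 in KO, against 494 and 392 in WT samples (-0.16), and Rasa4 at 37.4 and 51.4 in KO, against 32.1 and 52.0 in WT samples (0.09). These values overlapped between the groups for Nf1 and Rasa4.

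Among the 6 tested Raf, Mek and Erk kinase genes, log2 fold changes ran from -0.17 to 0.15 around a median of 0.06, with 4 above 0 and 2 below. Map2k2, which encodes Mek2, was at 1753 and 1602 in KO, against 1911 and 1870 in WT samples, and Mapk3, which encodes Erk1, at 2838 and 3030 in KO, against 2606 and 2670 in WT samples. The 11 tested Erk feedback and target genes had a median of 0.01, with 6 above 0 and 5 below. Etv4, an ETS transcription factor gene, was at 141 and 246 in KO, against 111 and 80.1 in WT samples (log2 fold change 1.02, edgeR, adjusted p = 0.538), Dusp6, a phosphatase gene that Erk signaling induces, had a log2 fold change of -0.26, and the cyclin gene Ccnd1 one of 0.48. The directions within this list were mixed, and the values of its genes under other scalings are not given here.

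**Figure D5:**
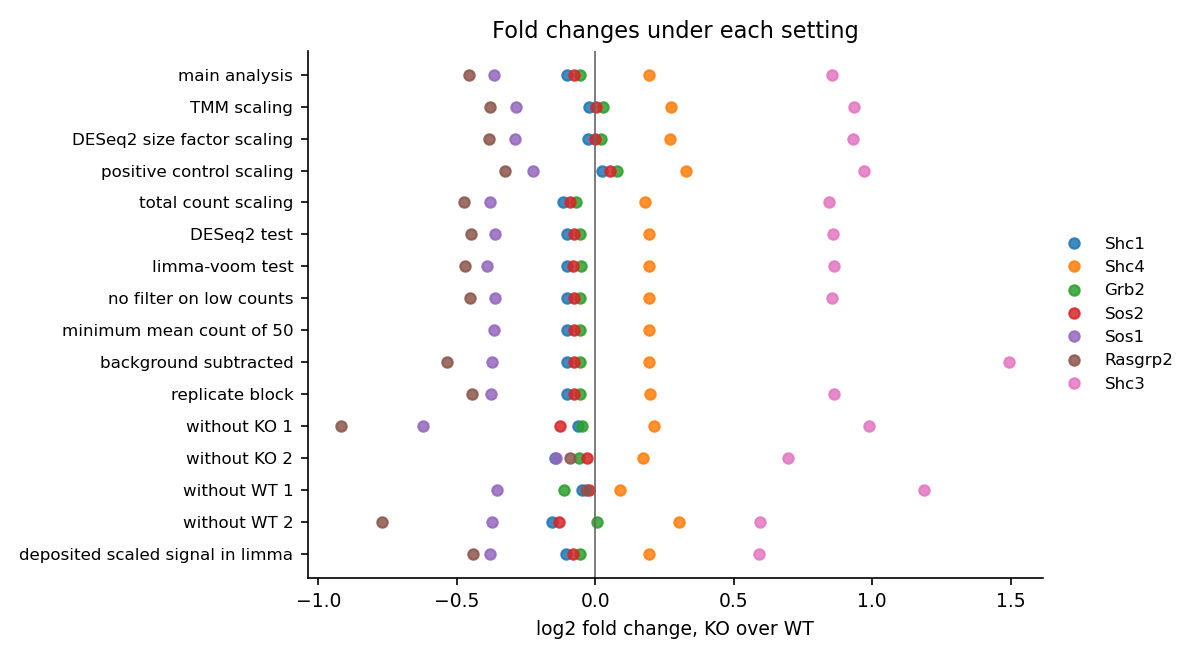
Log2 fold change of KO over WT for each tested member (colors) under the main analysis and each alternative scaling, test, filter or left-out sample, 1 line per setting. Shc3 and Shc4 stay right of 0 and Sos1 and Rasgrp2 left of 0, while Shc1, Grb2 and Sos2 lie close to 0 and cross it under some scalings; Shc3 and Rasgrp2 have no value at a minimum mean count of 50.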

How the data were processed

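Total RNA (100 ng per sample) of sorted CD45- cells was run by the authors on the mouse PanCancer Pathways panel of the nCounter system, with 750 endogenous probes and 20 housekeeping, 8 negative and 6 positive controls. Raw barcode counts of 4 samples, 2 per group, were deposited, as was a scaled signal, in which counts carry 1 factor per sample and low values a floor of 17. How the authors set that factor and floor was not given in the sources used here. The authors' column on the share of samples above a threshold was not used. No genome build applies to the counts.

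Scaling used the housekeeping probes' geometric mean (factors 0.935 to 1.06). Endogenous probes over the background limit (negative control mean plus 2 SD) in at least 2 samples (446 of 750) were tested on the deposited counts with edgeR 4.0.16 (quasi-likelihood, two-sided, genotype as the only term, Benjamini-Hochberg over all 446) in R 4.3.3, and the test was tried on simulated counts. Standard errors came from the fold change and its F statistic. Alternatives were other scalings, DESeq2 1.42.0, limma-voom (limma 3.58.1), subtraction of background, other filters, a replicate block, each sample left out, and the deposited signal in limma (log2 with a pseudocount of 1). All 10 members were reported, and up to 3 genes of lowest p per companion list, apart from a few genes that are not reported here. The members and lists were chosen with earlier results of these data known. All 10 accessions matched their symbol in RefSeq (GRCm38.p6).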

Additional observations from a re-analysis of the deposited data

How the results depend on the processing

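No member passed the adjusted threshold in any alternative that tested it. The 7 were tested in each, except that a minimum mean count of 50 left 5, and Shc2, Rasgrf1 and Rasgrp1 were tested only with no filter. Over all genes the count past it was 0 in the main analysis and under the 4 other scalings, limma-voom, both filters, background subtraction and the deposited signal. It was 3 with DESeq2, 1 with the replicate block, and 0 to 20 with 1 sample left out, the 20 without KO 1. Deviations of same-numbered samples correlated at 0.0397, and the block changed no call among the members. The 13 genes higher and 20 lower in KO at an unadjusted p under 0.05 became 22 and 10 with TMM or DESeq2 size factors, 25 and 3 with positive controls, and 11 and 31 with total counts. Shc3, Shc4, Sos1 and Rasgrp2 kept their direction under all alternatives that gave them a value. Grb2 reversed with TMM (0.0274), DESeq2 size factors (0.0228), positive controls (0.0796) and, among fits with 1 sample left out (-0.112 to 0.00570), without WT 2. Sos2 reversed with TMM (0.00227) and positive controls (0.0528), and Shc1 with positive controls (0.0245). The log2 fold change of Shc3 ranged from 0.59 to 1.50 and that of Sos1 from -0.62 to -0.14. A limit of the mean plus 3 SD left 6 members in place of 7, without Shc3. The counts of Shc3 and Rasgrp2 limit their precision, and for Shc2, Rasgrf1 and Rasgrp1 the assay gives only that they were at background.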
